A study of Danio rerio with 3 samples.

Results

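The genes described here are those of the lysosomal proton pump, the cathepsins, and the lysosome-associated membrane proteins (LAMPs). Members were all gene rows whose symbol starts with atp6v0, atp6v1, atp6ap, cts, or lamp, which gave 50 of 29077 rows: 9 subunits of the membrane part of the pump (V0), 13 of its cytosolic part (V1), 5 accessory subunits, 19 cathepsins, and 4 LAMP genes. The rows carry 49 symbols, because *ctslb* is listed under 2 gene IDs, and *LAMP5*, written in capitals, was matched without regard to case. Of the 50 rows, 48 had at least 1 unique molecular identifier (UMI, a counted mRNA molecule) in the cells kept, and together they held 166330 UMIs, which is 0.478% of all UMIs of those cells.

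The vacuolar H+-ATPase pumps protons into lysosomes, endosomes, and secretory vesicles: V1 hydrolyzes ATP, and V0 carries the protons across the membrane. The same pump loads synaptic vesicles, since its proton gradient drives the uptake of neurotransmitters. Cathepsins are proteases that work in the acid lumen that the pump maintains, and LAMPs are heavily glycosylated proteins of the lysosomal membrane. Lysosome content is of interest in adult neural stem cells because, in mice, quiescent and activated stem cells have been described to differ in it.

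The measured cells came from the telencephalon of 12-week-old *Tg(sox2:gfp)* zebrafish, in which GFP marks radial glia, the neural stem cells of the adult fish, and intermediate progenitors. All fish were bathed in LY-411575 (LY), an inhibitor of γ-secretase that blocks Notch signaling, for 24 hours by the study's methods and 48 hours by the deposited description. By the study's account, the olfactory bulbs were taken off and the subpallium was cut away to enrich for the pallium. Cells were dissociated from pools of fish, enriched for GFP by sorting on 3 days, and sequenced as 3 droplet libraries (replicates 1 to 3). The sorted cells with GFP were combined with as many cells without it. Every sample is LY-treated, so all contrasts below are between cell groups within the treated telencephalon, and no effect of the inhibitor on the members was measured.

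The 3 libraries held 8143, 6205, and 5349 cell barcodes and 15050320, 13048298, and 12104324 UMIs. After filtering, 17842 cells were kept, of which the 13804 with at least 1000 UMIs were placed in groups by the number of distinct marker genes seen in 1000 UMIs drawn from each cell. Only 53 to 71 barcodes were shared between any pair of libraries. Replicate 2 stood apart in the summed level of 4 erythrocyte markers, 13.3 UMIs per 10000 in its radial glia against 0.448 and 1.52 in replicates 1 and 3. No marker is a member of the lysosomal set, so the grouping did not use the values described here.

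The groups were 2038 radial glia (noncycling), 1315 cycling cells, 5812 neurons, 620 oligodendrocyte precursor cells (OPCs), 214 oligodendrocytes, and 202 macrophages, and 3603 cells met no rule or more than 1. Radial glia were further divided by whether the 1000 UMIs held *ascl1a*, a proneural factor gene (1295 with, 743 without), or *pnp6*, a purine nucleoside phosphorylase gene (261 with, 1777 without). The study read *ascl1a* as a sign of decreased Notch activity and of preactivation, and found it in almost all stem cells after LY. The exception it named was a cluster with high *pnp6*, predicted to be deeply quiescent, in which *ascl1a* stayed repressed. A *pnp6* UMI alone does not place a cell in that cluster. The *ascl1a* split is not read as one of activated against quiescent cells. A cell without a UMI may still express the gene. The defining markers were present: the 12 radial glia markers summed to 483 ± 37.3 UMIs per 10000 in radial glia (SD, n = 3) and 19.7 ± 1.93 in neurons, and the 18 macrophage markers to 361 ± 80.1 in macrophages and 0.411 to 0.527 elsewhere outside the radial glia subsets. In the macrophages *cd74a* was seen in 93.1% of cells and *mpeg1.1* in 47.5%, whereas the microglial gene *p2ry12* was seen in 0 of 202 cells at 1000 UMIs, which allows up to 1.49% of cells with a UMI and does not limit the cells that express it. No subtype is assigned. Between 18.6% and 32% of the cells that met a rule did so with the smallest number of markers allowed.

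At 1000 UMIs per cell, the members together took from 0.229% of UMIs in cycling cells to 0.653% in OPCs. In radial glia they took 0.351%, 0.349%, and 0.362% in replicates 1 to 3. Cycling cells lay below this in every replicate, at 0.217%, 0.225%, and 0.246%. Neurons (0.603% ± 0.0248), OPCs (0.653% ± 0.0459), oligodendrocytes (0.456% ± 0.0187), and macrophages (0.646% ± 0.112; SD, n = 3) all lay above it in every replicate. The means of neurons, OPCs, and macrophages differed by less than the spread of the macrophage replicates (0.556%, 0.610%, and 0.772%).

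These similar totals were made up of different genes. Pump genes took 0.507% ± 0.0226 of UMIs in neurons, against 0.172% ± 0.00756 in radial glia, whereas cathepsins took 0.0867% ± 0.00450 in neurons against 0.162% ± 0.00338 in radial glia. In OPCs the cathepsins took 0.340% ± 0.0407 and the pump 0.288% ± 0.02. With 3 replicates an exact sign-flip test of paired values cannot go below a two-sided p of 0.25, so these shares are given as values, and tests were made per gene.

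**Figure D1:**
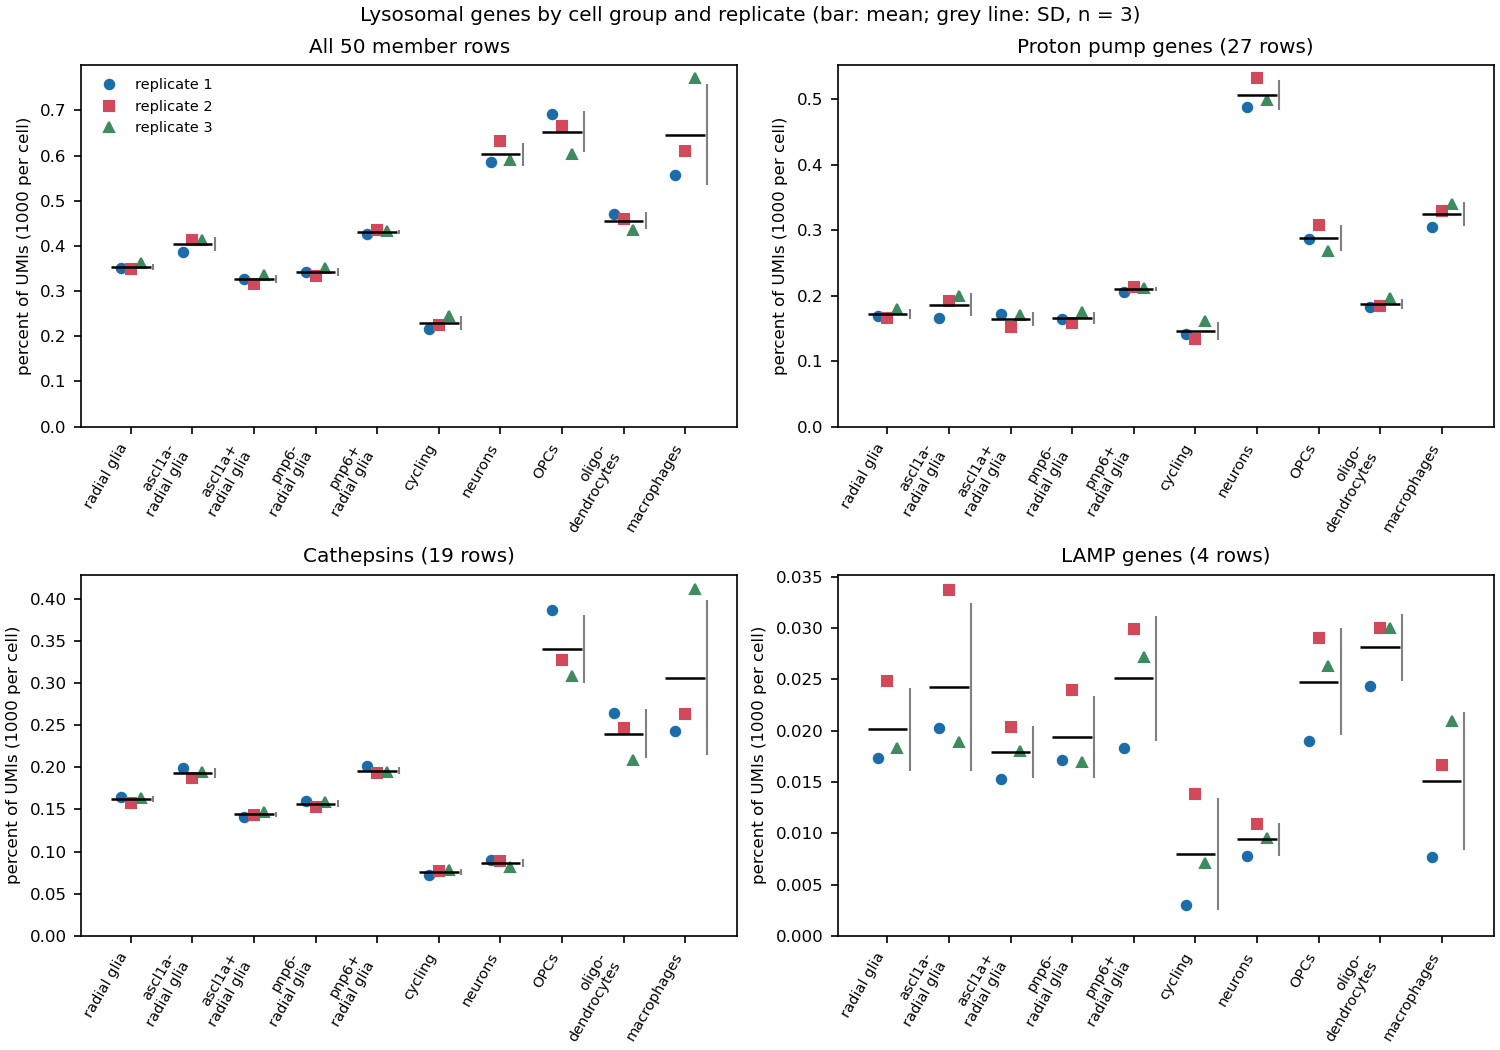
Percent of UMIs (y axis, from 1000 UMIs per cell) taken by all members, the pump genes, the cathepsins, and the LAMP genes in 10 cell groups (x axis). Each symbol is 1 replicate, the black bar is the mean, and the grey line is the SD. The 3 neuron replicates have the highest pump share (0.489%, 0.532%, and 0.499%), and cathepsin shares are lowest in cycling cells and neurons.

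Each gene was tested in 7 comparisons with edgeR's quasi-likelihood test on UMIs summed per replicate and cell group, with the replicate as a block, and p values were adjusted over all genes tested (Benjamini-Hochberg, threshold 0.05). "Higher" and "lower" below mean past that threshold. Of the 50 rows, 42 were tested in at least 1 comparison and 33 in all 7, since genes with few UMIs are filtered out. A member tested in 1 or a few comparisons could pass the filter through the group where it was high, and its call there was then partly set by the filter. An exception was *ctso*, tested in neurons alone, which did not pass the threshold. *lamp1a* was called only as lower, so for its calls the group where it was high was the radial glia. Counts are therefore also given over the 33 where they change. Of the 42, 41 passed the threshold at least once, and 22 passed in both directions, in different comparisons. The matching shares of all genes over the 7 comparisons were not computed, so these counts are not read as a trait of the members. In the neuron comparison alone, 32.6% of all genes tested were higher and 32.5% lower. Comparisons that share the radial glia as reference are not independent. The libraries are pools of fish sorted on separate days. The block takes out the differences between these 3 libraries that both groups share. The p values thus rest on how the difference between groups varied over the 3, with a spread estimated in part over all genes.

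**Figure D2:**
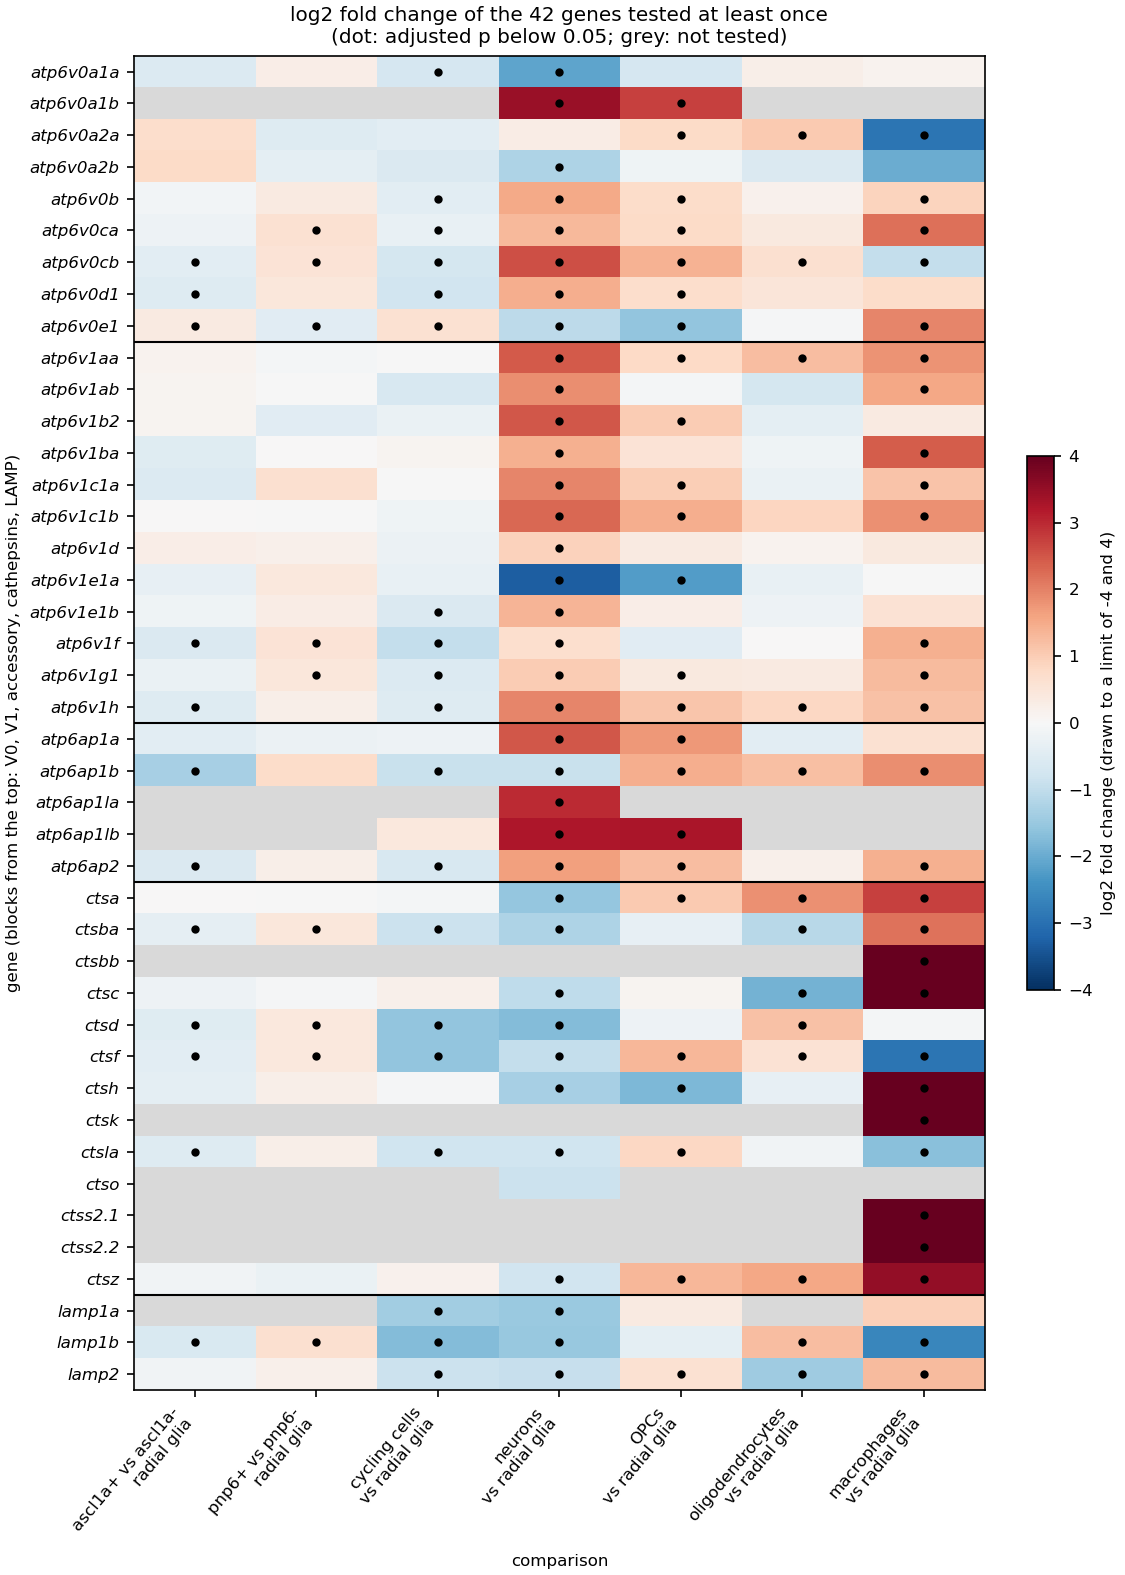
Log2 fold change (color, drawn to a limit of -4 and 4) of the 42 members tested at least once (rows) in the 7 comparisons (columns). Black dots mark adjusted p below 0.05, and grey cells were not tested. Neurons show 20 dots on higher genes, all in the pump blocks, and 16 on lower ones, and *atp6v0e1* has the sign opposite to most pump genes in several columns.

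Among radial glia, the members were lower with *ascl1a* than without. They took 0.328%, 0.317%, and 0.336% of UMIs in the *ascl1a*+ radial glia of replicates 1 to 3 and 0.386%, 0.413%, and 0.412% in the *ascl1a*- radial glia. The ratio was 0.810 on average and between 0.766 and 0.848 in the replicates. By subgroup, the mean ratio was 0.746 for the cathepsins (0.706 to 0.770), 0.687 for the accessory subunits, and 0.891 for the pump as a whole, where replicate 1 went the other way (1.03).

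Of 33 members tested, 11 were lower and 1 higher in *ascl1a*+ radial glia. Over all genes tested, 9.45% were lower and 7.37% higher. The median log2 fold change was -0.33 over the members and 0.02 over all genes. *atp6ap1b*, an accessory subunit that takes part in pump assembly, changed most. Its level was 0.228, 0.141, and 0.184 UMIs per 10000 in *ascl1a*+ radial glia and 0.450, 0.441, and 0.507 in *ascl1a*- radial glia, without overlap (log2 fold change -1.34 ± 0.26, SE; edgeR adjusted p = 1.99e-05). *atp6ap2*, the other accessory subunit, known also as the prorenin receptor, was at 1.51, 1.61, and 1.59 against 2.41, 2.51, and 2.06 (-0.58 ± 0.12, edgeR adjusted p = 1.03e-04).

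Of the 8 cathepsins tested 4 were lower. Cathepsin L (*ctsla*), a cysteine protease, was at 2.25, 1.89, and 2.43 UMIs per 10000 with *ascl1a* and at 3.38, 2.83, and 3.11 without (log2 fold change -0.52 ± 0.11, edgeR adjusted p = 2.29e-04). Cathepsin D (*ctsd*), the main aspartic protease of lysosomes, had a mean of 3.61 against 4.999, and cathepsin F (*ctsf*), another cysteine protease, 6.66 against 8.95. *lamp1b* was at 1.05, 1.34, and 1.101 against 1.73, 2.07, and 1.47, and the groups did not overlap (-0.60 ± 0.13, edgeR adjusted p = 1.71e-04). The other lower members were *atp6v0cb*, *atp6v0d1*, *atp6v1f*, *atp6v1h*, and *ctsba*, with log2 fold changes between -0.37 and -0.57.

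The single higher gene was *atp6v0e1*, which encodes the small e subunit of V0. Its level was 2.501, 1.79, and 2.87 UMIs per 10000 with *ascl1a* and 1.49, 1.32, and 2.84 without, so the groups overlapped and replicate 3 hardly moved (log2 fold change 0.36 ± 0.12, edgeR adjusted p = 0.0309). The call was lost without replicate 1 or replicate 2.

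Other values moved with the *ascl1a* groups. The 12 radial glia markers summed to 383 ± 25.9 UMIs per 10000 in *ascl1a*+ and 629 ± 74.4 in *ascl1a*- cells, the 24 cycling markers to 11.4 ± 2.42 and 7.23 ± 1.55, and the median depth was 1921 and 2247 UMIs per cell. Their part in the result was not tested. Leaving out any 1 replicate left 6 lower members, where 5.61% to 6.86% of all genes were lower. Without each replicate, 4 of the 12 calls (*atp6ap1b*, *atp6ap2*, *ctsla*, and *lamp1b*) kept their side of the threshold. Over all 13 planned settings run, 0 of the 12 calls held throughout. Without the replicate block 1 member was lower and 0 higher, where 1.45% and 0.217% of all genes passed.

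With *pnp6* the members were higher than without. They took 0.426%, 0.436%, and 0.432% of UMIs in *pnp6*+ radial glia and 0.342%, 0.334%, and 0.351% in *pnp6*- radial glia, a mean ratio of 1.26 (1.23 to 1.30 in the replicates). The cathepsin ratio was 1.25 and the pump ratio 1.27, and both were above 1 in 3 of 3 replicates. Of 33 members tested, 8 were higher and 1 lower, against 10.2% and 9.06% of all genes. The median log2 fold change was 0.22 over the members and -0.05 over all genes.

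*lamp1b* had the largest change among the members that passed, with 1.93, 2.24, and 1.91 UMIs per 10000 in *pnp6*+ and 1.26, 1.49, and 1.11 in *pnp6*- radial glia, without overlap (log2 fold change 0.65 ± 0.15, edgeR adjusted p = 3.12e-04). Both genes of the c subunit, which forms the proteolipid ring of V0, were higher. *atp6v0ca* was at 1.62, 1.39, and 1.52 against 1.17, 0.885, and 0.907 (0.60 ± 0.17), and *atp6v0cb* at 2.33, 2.097, and 2.42 against 1.79, 1.57, and 1.36 (0.53 ± 0.15; edgeR adjusted p = 0.00413 and 0.00251). *atp6v1f* and *atp6v1g1*, V1 stalk subunits, were higher by 0.56 ± 0.21 and 0.46 ± 0.15.

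Among proteases, *ctsf* was at a mean of 9.74 in *pnp6*+ and 7.17 in *pnp6*- cells (log2 fold change 0.43 ± 0.09, edgeR adjusted p = 2.96e-05), *ctsd* at 5.37 and 3.95 (0.42 ± 0.11), and cathepsin B (*ctsba*) at 1.80 and 1.32 (0.44 ± 0.16). *atp6v0e1* was again the exception, at 1.66, 1.35, and 2.02 against 2.12, 1.66, and 3.03 (-0.45 ± 0.15, edgeR adjusted p = 0.0183), with overlapping groups. That call was lost when any replicate was left out.

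The radial glia markers moved with *pnp6* as well, from 423 ± 26.7 UMIs per 10000 in *pnp6*- to 786 ± 54.5 in *pnp6*+ cells, and the median depth from 1950 to 2709 UMIs per cell. Of the *pnp6*+ cells, 151 had no *ascl1a* UMI and 110 had 1 or more. When only radial glia without *ascl1a* were compared, 0 of the 21 members then tested passed in either direction, where 6.60% of all genes were higher and 7.78% lower. With at least 2 *pnp6* UMIs (57 cells) 0 of 31 passed, where 3.10% of all genes were higher and 4.82% lower. Without the replicate block 0 passed, against 2.97% of all genes higher. Without replicate 2 the higher members numbered 5 and without replicate 3 they numbered 4, where 6.78% and 7.31% of all genes were higher. Only *lamp1b*, *ctsd*, and *ctsf* kept their calls without each replicate, and 0 of the 9 calls held throughout the 13 planned settings run.

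Cycling cells had lower levels of many members. Of 35 members tested, 18 were lower and 1 higher than in noncycling radial glia, against 23.8% and 26.5% of all genes, and the median log2 fold change was -0.52 (0.02 over all genes). Over the 33 members tested in all comparisons, 17 were lower and 1 higher. Cathepsins took 0.0717%, 0.0766%, and 0.0783% of UMIs in cycling cells and 0.165%, 0.158%, and 0.163% in radial glia, a mean ratio of 0.466. For the V0 genes together the ratio was 0.981, from 0.904 to 1.07.

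The largest differences were in *lamp1b*, *ctsd*, and *ctsf*. *ctsf* was at 2.28, 2.93, and 2.51 UMIs per 10000 in cycling cells and 7.70, 7.98, and 7.12 in radial glia (log2 fold change -1.57 ± 0.09, edgeR adjusted p = 1.84e-14). *ctsd* was at 1.18, 1.61, and 1.42 against 4.05, 4.32, and 4.16 (-1.58 ± 0.10, edgeR adjusted p = 9.13e-14). *lamp1b* was at 0.216, 0.529, and 0.474 against 1.35, 1.63, and 1.25 (-1.74 ± 0.15, edgeR adjusted p = 6.17e-11). For all 3 genes every cycling value lay below every radial glia value.

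*ctsla*, *ctsba*, *lamp2*, and *lamp1a* were lower too (log2 fold changes -0.79, -0.87, -0.87, and -1.39), and *lamp1a*, with 17 UMIs in the cycling cells, had too few UMIs to be tested without replicate 2. Not all cathepsins moved: *ctsa*, *ctsc*, *ctsh*, and *ctsz* had log2 fold changes between -0.07 and 0.21 and did not pass. In the pump, *atp6v1f* (-0.95 ± 0.15), *atp6ap1b* (-0.88 ± 0.21), *atp6v0d1* (-0.76 ± 0.14), and *atp6v0cb* (-0.70 ± 0.11) led the 11 lower genes. V1 genes for the A and B subunits of the ATP-hydrolyzing head (*atp6v1aa*, *atp6v1ab*, *atp6v1b2*, and *atp6v1ba*) did not pass, with values from -0.65 to 0.11.

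*atp6v0e1* was the only higher member in cycling cells, at 3.24, 2.62, and 4.01 UMIs per 10000 against 2.06, 1.61, and 2.85 in radial glia (log2 fold change 0.60 ± 0.09, edgeR adjusted p = 4.36e-06). It was higher in 3 of 3 replicates, though the groups overlapped between replicates, and the call was lost without the block. The cycling group was mixed, with 417 of 1315 cells also carrying at least 5 radial glia markers. With those 417 cells alone, an alternative added after the data were seen, 11 of 33 members were lower, where 12.9% of all genes were. Neuronal markers were at 44.4 ± 2.56 UMIs per 10000 in cycling cells and 24.5 ± 1.92 in radial glia, and their part was not tested.

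In neurons most pump genes were higher and most cathepsins lower. Of 26 pump genes tested 20 were higher and 5 lower, whereas of 9 cathepsins 8 were lower and 0 higher, and all 3 LAMP genes tested were lower. In all, 20 of 38 members were higher and 16 lower, where 32.6% and 32.5% of all genes were. Among the 20 are *atp6ap1la*, *atp6ap1lb*, and *atp6v0a1b*, which were tested in only 1 to 3 comparisons. Over the 33 members tested in all comparisons, 17 were higher and 15 lower. Among these 33, 17 of 23 pump genes were higher and 5 lower (median log2 fold change 1.42), and 8 of 8 cathepsins were lower. Without *lamp1a*, 2 of 2 LAMP genes were lower (median log2 fold change -1.22). The median log2 fold change was 1.49 for the pump, -1.03 for the cathepsins, -1.49 for the LAMP genes, and 0.04 over all genes. Of these 36 calls, 35 kept their direction and threshold in the 11 planned settings run, which include leaving out each replicate. The exception, *lamp1a*, did not pass without replicate 2 (edgeR adjusted p = 0.151).

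*atp6v0cb* had the largest number of UMIs of any member. It was at 11.3, 12.8, and 10.0 UMIs per 10000 in neurons and 1.86, 1.67, and 1.54 in radial glia (log2 fold change 2.58 ± 0.11, edgeR adjusted p = 3.94e-15). *atp6v0a1b*, one of the genes of the large a subunit that forms the path of the protons, was at 0.703, 0.425, and 0.407 against 0.0552, 0.0264, and 0.0434 (3.45 ± 0.24, edgeR adjusted p = 8.96e-12). With 20 UMIs in radial glia, its call was partly set by the filter on low counts. *atp6v0b* and *atp6v0d1*, which belong to the rotor, were higher by 1.51 ± 0.11 and 1.46 ± 0.12.

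In V1, 11 of the 12 genes tested were higher in neurons. *atp6v1b2*, for the B subunit of the ATP-hydrolyzing head, was at 3.22, 3.75, and 3.40 UMIs per 10000 against 0.577, 0.515, and 0.558 (log2 fold change 2.49 ± 0.12, edgeR adjusted p = 2.71e-14). *atp6v1aa*, for the catalytic A subunit, was higher by 2.46 ± 0.16 and *atp6v1e1b*, for a stalk subunit, by 1.36 ± 0.11. The exception was the other E copy, *atp6v1e1a*, at 0.0678, 0.0817, and 0.0880 in neurons against 0.564, 0.707, and 0.831 in radial glia (-3.28 ± 0.17, edgeR adjusted p = 3.57e-14). No neuron value came near the lowest radial glia value.

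The accessory subunits split in the same manner. *atp6ap2* was at 6.46, 7.05, and 6.31 UMIs per 10000 in neurons and 1.90, 1.96, and 1.77 in radial glia (log2 fold change 1.66 ± 0.11, edgeR adjusted p = 3.42e-12). *atp6ap1a* was higher by 2.497 ± 0.18, *atp6ap1la* by 2.97 ± 0.35, and *atp6ap1lb* by 3.23 ± 0.22, whereas *atp6ap1b* was lower (-0.90 ± 0.18). The last of these, with *atp6v0a1a* (-2.11 ± 0.24), *atp6v0a2b* (-1.23 ± 0.28), *atp6v0e1* (-1.04 ± 0.12), and *atp6v1e1a*, made up the 5 lower pump genes. The call of *atp6ap1la*, tested in this comparison alone and with 10 UMIs in radial glia, was partly set by the filter on low counts.

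**Figure D3:**
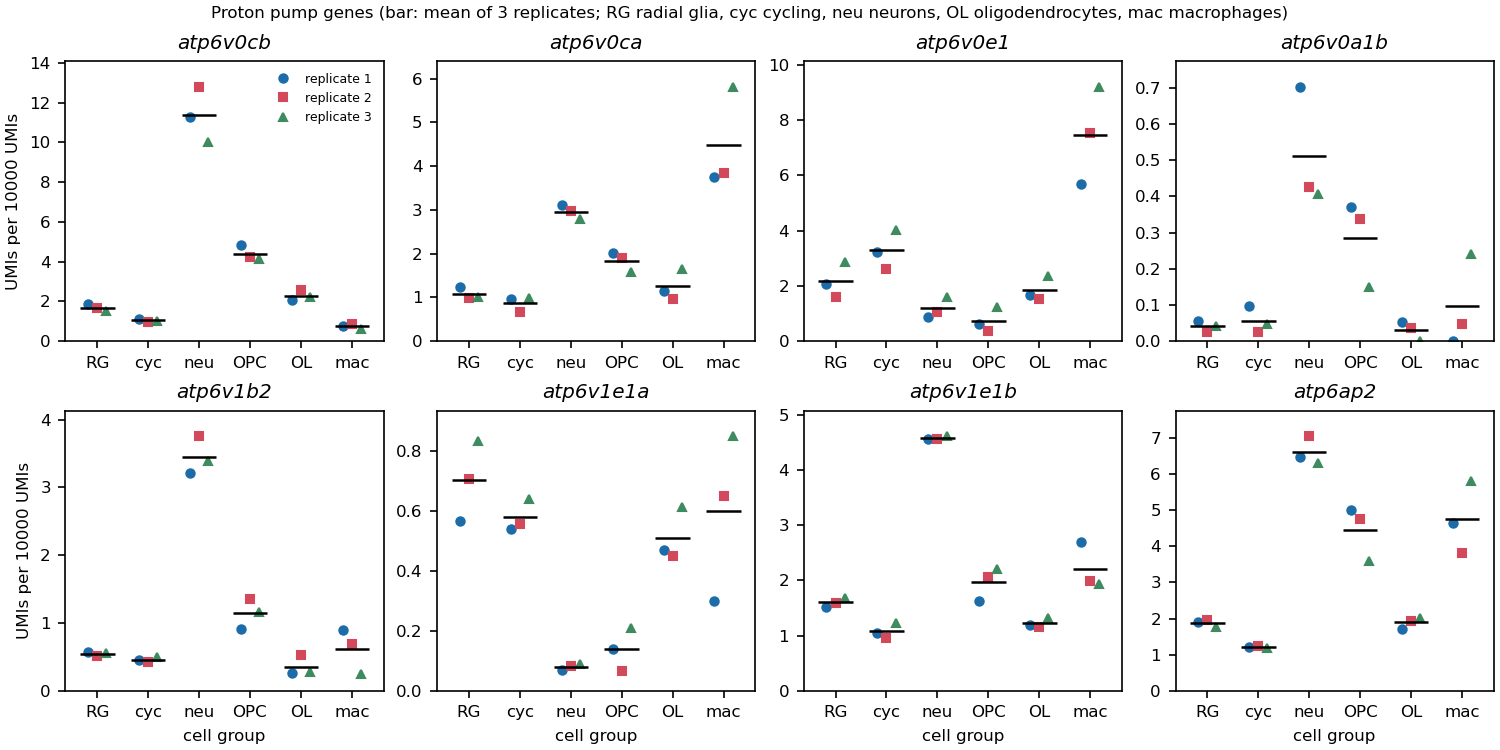
UMIs per 10000 UMIs (y axes, starting at 0 and scaled to each gene) of 8 pump genes in the 6 main cell groups (x axes). Symbols are the 3 replicates and bars their mean. *atp6v0cb*, *atp6v1b2*, *atp6v1e1b*, and *atp6ap2* are highest in neurons, *atp6v0ca* and *atp6v0e1* in macrophages, and *atp6v1e1a* is lowest in neurons and OPCs.

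Among the proteases, *ctsd* was at 1.48, 1.38, and 1.29 UMIs per 10000 in neurons against 4.05, 4.32, and 4.16 in radial glia (log2 fold change -1.75 ± 0.11, edgeR adjusted p = 1.42e-12). *ctsa*, a serine carboxypeptidase that also protects β-galactosidase and neuraminidase in lysosomes, was at 0.0905, 0.126, and 0.137 against 0.301, 0.304, and 0.310 (-1.55 ± 0.19, edgeR adjusted p = 2.07e-07). *lamp1b* was at 0.473, 0.611, and 0.573 against 1.35, 1.63, and 1.25 (-1.51 ± 0.12, edgeR adjusted p = 9.36e-11), and none of these 3 genes overlapped between the groups. *ctsf* (-0.95 ± 0.11), *ctsla* (-0.79 ± 0.11), *ctsba* (-1.24 ± 0.11), *ctsh* (-1.34 ± 0.25), *ctsc*, *ctsz*, and *lamp2* were lower as well, and *ctso* (-0.87 ± 0.41) did not pass.

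OPCs, the precursors of oligodendrocytes, had higher levels of both pump genes and cathepsins. Of 36 members tested, 21 were higher and 3 lower than in radial glia, against 22.8% and 23.9% of all genes, with a median log2 fold change of 0.73 (-0.04 over all genes). The higher genes were 16 of 25 pump genes, 4 of 8 cathepsins, and *lamp2*. Among the 16 are *atp6ap1lb* and *atp6v0a1b*, which were tested in only 3 and 2 comparisons. Over the 33 members tested in all comparisons, 19 were higher and 3 lower, and of the pump genes among them 14 of 23 were higher. Of the 24 calls, 18 held without each replicate. Without replicate 1 the lower members numbered 5, where 20.7% of all genes were lower.

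*ctsf* reached its highest level in OPCs. It was at 24.3, 18.7, and 15.7 UMIs per 10000, against 7.70, 7.98, and 7.12 in radial glia, and every OPC value was above every radial glia value (log2 fold change 1.34 ± 0.16, edgeR adjusted p = 1.27e-07). *ctsla* was also highest there, at 5.24, 3.95, and 4.63 against 2.74, 2.26, and 2.69 (0.84 ± 0.16). *ctsz*, a carboxypeptidase, was higher by 1.34 ± 0.26 and *ctsa* by 1.05 ± 0.24, whereas *ctsd* (-0.20 ± 0.15) and *ctsba* (-0.32 ± 0.19) did not pass and *ctsh*, an aminopeptidase, was lower (-1.80 ± 0.53, edgeR adjusted p = 0.00657), a call lost without replicate 2.

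In the pump, *atp6ap1lb* was at 0.898, 0.540, and 0.478 UMIs per 10000 in OPCs and 0.0552, 0.0462, and 0.0993 in radial glia (log2 fold change 3.27 ± 0.34, edgeR adjusted p = 8.69e-09). Its call, like that of *atp6v0a1b*, was partly set by the filter on low counts. *atp6v0a1b* was higher by 2.74 ± 0.44, *atp6ap1a* by 1.74 ± 0.30, *atp6v1c1b*, a regulatory V1 subunit, by 1.45 ± 0.28, *atp6ap1b* by 1.44 ± 0.24, and *atp6v0cb* by 1.38 ± 0.16. Both *atp6ap1* copies were higher in OPCs, whereas in neurons *atp6ap1b* was lower. The lower genes were *atp6v1e1a*, at 0.141, 0.0675, and 0.209 against 0.564, 0.707, and 0.831 (-2.24 ± 0.31, edgeR adjusted p = 1.07e-06), and *atp6v0e1*, at 0.616, 0.371, and 1.25 against 2.06, 1.61, and 2.85 (-1.58 ± 0.20, edgeR adjusted p = 2.35e-07), beside *ctsh*. Neuronal markers were at 45.6 ± 4.53 UMIs per 10000 in OPCs, against 24.5 ± 1.92 in radial glia and 148 ± 7.07 in neurons, and their part was not tested.

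In oligodendrocytes, the myelinating cells, fewer members passed than in OPCs. Of 33 members tested 10 were higher and 3 lower, against 18.9% and 24.5% of all genes, and the median log2 fold change was 0.18 (-0.12 over all genes). The cathepsins took 0.240% ± 0.0288 of UMIs and the LAMP genes 0.0281% ± 0.00328, while the pump, at 0.188% ± 0.00787, was at 1.09 times its share in radial glia.

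*ctsd* was highest in this group, at 8.30, 8.63, and 8.07 UMIs per 10000 against 4.05, 4.32, and 4.16 in radial glia (log2 fold change 1.18 ± 0.12, edgeR adjusted p = 1.29e-09). *lamp1b* was highest here too, at 3.03, 2.73, and 3.07 against 1.35, 1.63, and 1.25 (1.24 ± 0.16, edgeR adjusted p = 1.65e-07), whereas *lamp2*, which in mammals encodes the receptor of chaperone-mediated autophagy, was lower, at 0.157, 0.187, and 0.283 against 0.460, 0.753, and 0.651 (-1.41 ± 0.35, edgeR adjusted p = 0.00145). No oligodendrocyte value of these 3 genes overlapped with the radial glia.

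*ctsa* was at 0.940, 0.971, and 0.944 UMIs per 10000 in oligodendrocytes and 0.301, 0.304, and 0.310 in radial glia (log2 fold change 1.82 ± 0.25, edgeR adjusted p = 5.67e-07). *ctsz* was higher by 1.55 ± 0.33 and *ctsf* by 0.57 ± 0.12, and *ctsba* (-1.12 ± 0.23) and *ctsc* (-1.90 ± 0.65) were lower. The higher pump genes were *atp6v0a2a* (1.06 ± 0.33), *atp6v0cb* (0.63 ± 0.16), *atp6v1aa* (1.25 ± 0.34), *atp6v1h* (0.84 ± 0.25), and *atp6ap1b* (1.19 ± 0.30).

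With 214 cells, some of these calls rested on few UMIs, such as *ctsba* with 38, *atp6v1aa* with 33, and *atp6v0a2a* with 30, against 196 for *lamp1b*. Only *ctsa*, *ctsba*, *ctsd*, *ctsf*, and *lamp1b* held without each replicate. The higher members numbered 6 without replicate 3 (13.4% of all genes), and the lower ones 1 without replicate 2 (18.2% of all genes). The 18 neuronal markers summed to 92.0 ± 7.56 UMIs per 10000 in oligodendrocytes, with *stmn1b* in 94.9% and *elavl3* in 42.1% of cells, *snap25a* in 6.54%, and *gad2* in 1.87%. In radial glia the sum was 24.5 ± 1.92, and the part of these genes in the result was not tested.

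In macrophages 23 of 38 members were higher and 5 lower than in radial glia, against 15.3% and 19.3% of all genes. Over the 33 members tested in all comparisons, 19 were higher and 5 lower. Of the 12 cathepsins tested, *ctss2.1*, *ctss2.2*, *ctsk*, and *ctsbb* were tested in this comparison alone, having passed the filter through the macrophages. Of the 8 other cathepsins 5 were higher and 2 lower, with a median log2 fold change of 2.46, and of the 23 pump genes 13 were higher and 2 lower, with a median of 1.13 (-0.26 over all genes). Macrophages were few, with 39, 120, and 43 cells in replicates 1 to 3.

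Cathepsin S is a cysteine protease of antigen-presenting cells. *ctss2.2* was at 4.05, 4.22, and 3.88 UMIs per 10000 in macrophages and 0, 0.0132, and 0.00620 in radial glia, that is 150 UMIs against 3, a ratio of 652 with a 95% exact counting interval from 219 to 3196. *ctss2.1* gave 63 UMIs against 2 (ratio 411, 109 to 3464), *ctsk*, cathepsin K, 40 against 1 (521, 88.4 to 21100), and *ctsbb* 28 against 2 (182.5, 46.0 to 1581). The intervals cover counting error only. All 4 entered the edgeR test through the macrophages, so that they passed it was partly set by the filter and adds nothing to the counts. Their log2 fold changes, from 6.98 to 9.14, depend on the model for so few reference UMIs.

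The few UMIs of these genes outside macrophages were set beside those of the macrophage markers. Relative to macrophages, the 18 macrophage markers summed to 0.114% to 0.146% in the other 5 groups. These markers also set the groups, so their low level there was partly fixed by the grouping. *ctss2.2* was at 0% to 0.391% of its macrophage level in those groups and *ctsk* at 0% to 0.167%. *ctsbb* was at 0.666% in radial glia and 0% in the others. *ctss2.1* reached 1.06% in cycling cells and 1.69% in oligodendrocytes, from a few UMIs.

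Other cathepsins high in macrophages were at larger shares elsewhere. *ctsc*, which activates serine proteases of immune cells, was at 2.85, 5.05, and 7.51 UMIs per 10000 in macrophages and 0.135, 0.284, and 0.341 in radial glia (log2 fold change 4.47 ± 0.27, edgeR adjusted p = 8.02e-61), and radial glia were at 4.93% of the macrophage level. *ctsh* was at 3.45, 2.74, and 5.93 against 0.147, 0.238, and 0.174 (4.47 ± 0.28, edgeR adjusted p = 1.19e-56), with radial glia at 4.61%. For *ctsba*, at 4.80, 6.12, and 6.42 against 1.24, 1.53, and 1.43, radial glia were at 24.2% of the macrophage level (2.18 ± 0.23). *ctsa* (2.74 ± 0.32) and *ctsz* (3.52 ± 0.29) were higher too, and oligodendrocytes were at 50.1% and 24.4% of the macrophage levels of these genes.

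Against these, 2 of the most abundant cathepsins of the glia were low in macrophages. *ctsf* was at 1.1997, 0.742, and 0.969 UMIs per 10000 in macrophages and 7.70, 7.98, and 7.12 in radial glia (log2 fold change -2.92 ± 0.31, edgeR adjusted p = 3.42e-20). *ctsla* was at 0.600, 0.557, and 1.09 against 2.74, 2.26, and 2.69 (-1.66 ± 0.32, edgeR adjusted p = 1.78e-06). *ctsd* was at 1.95, 3.39, and 5.57 against 4.05, 4.32, and 4.16, with replicates on both sides, and did not pass (-0.09 ± 0.24). Against all other grouped cells in place of radial glia, a reference added after the data were seen, *ctsd* was higher in macrophages (log2 fold change 0.89, past the threshold). This reference left out the cells placed in no group. Neurons were its largest part, with 12661096 UMIs against 4756065 in radial glia.

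In the macrophage pump, *atp6v0e1* was at 5.70, 7.51, and 9.20 UMIs per 10000 against 2.06, 1.61, and 2.85 (log2 fold change 1.96 ± 0.23, edgeR adjusted p = 4.02e-16), and *atp6v0ca* at 3.75, 3.85, and 5.81 against 1.23, 0.978, and 1.01 (2.19 ± 0.24, edgeR adjusted p = 5.29e-19). Neither overlapped with radial glia. *atp6v0cb* was lower, at 0.750, 0.881, and 0.606 against 1.86, 1.67, and 1.54 (-0.95 ± 0.32, edgeR adjusted p = 0.0124). The call of *atp6v0cb* was lost without replicate 1 or replicate 3.

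Of V1, 8 of 12 genes were higher, led by *atp6v1ba* (2.41 ± 0.39), *atp6v1c1b* (1.84 ± 0.50), and *atp6v1aa* (1.80 ± 0.46), and *atp6ap1b* (1.85 ± 0.40) and *atp6ap2* (1.43 ± 0.23) were higher among the accessory subunits. *atp6v0a2a*, with 1 UMI in macrophages, was lower by edgeR, but the ratio of the summed levels, 8.75, had a counting interval from 1.54 to 348, and the call was lost when any replicate was left out. Without replicate 1 or replicate 3 the lower members numbered 3, where 13.9% and 14.4% of all genes were lower. Of the 28 calls, 20 held without each replicate. Against all other grouped cells as reference, *atp6v1b2* and *atp6ap1a* were lower in macrophages (-1.51 and -1.42). There *atp6v0b*, *atp6v1aa*, *atp6v1c1a*, and *atp6v1h* turned to values between -0.23 and -0.13 that did not pass. Neurons held the most UMIs of that reference.

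**Figure D4:**
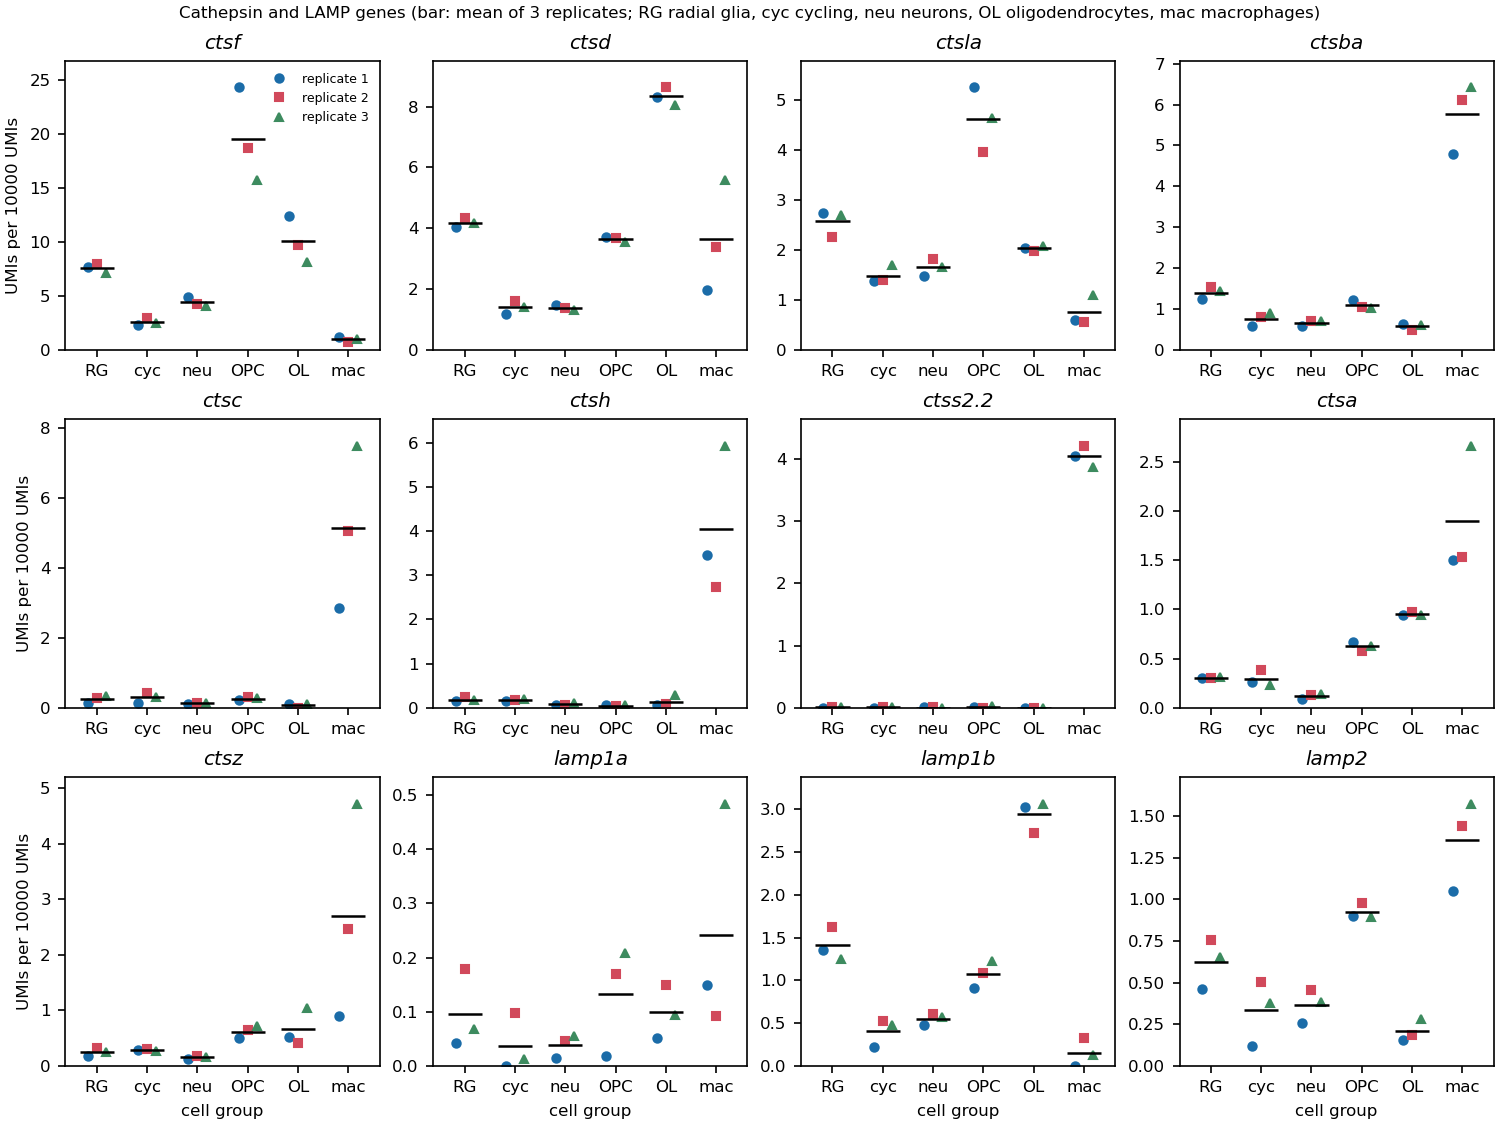
UMIs per 10000 UMIs (y axes, starting at 0 and scaled to each gene) of 9 cathepsins and 3 LAMP genes in the 6 main cell groups (x axes), with 3 replicates as symbols and their mean as a bar. *ctsf* and *ctsla* are highest in OPCs, *ctsd* and *lamp1b* in oligodendrocytes, and *ctsba*, *ctsc*, *ctsh*, *ctss2.2*, *ctsa*, *ctsz*, and *lamp2* in macrophages.

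The LAMP genes differed in their order over the groups. *lamp1b* went from a mean of 0.149 UMIs per 10000 in macrophages through 0.406 in cycling cells, 0.553 in neurons, 1.07 in OPCs, and 1.41 in radial glia to 2.94 in oligodendrocytes. *lamp2* went from 0.209 in oligodendrocytes through 0.333 in cycling cells, 0.365 in neurons, 0.622 in radial glia, and 0.924 in OPCs to 1.35 in macrophages. Cycling cells and neurons were neighbors in both orders and overlapped between replicates. In macrophages *lamp1b* was lower than in radial glia, with 8 UMIs (log2 fold change -2.61 ± 0.45, edgeR adjusted p = 6.72e-08), and *lamp2* higher, at 1.05, 1.44, and 1.57 against 0.460, 0.753, and 0.651 (1.26 ± 0.31, edgeR adjusted p = 2.77e-04).

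Several subunits are encoded by a pair of duplicated genes in zebrafish, and the share of a pair's UMIs that came from its a copy differed between cell groups. For *atp6v0a1a* and *atp6v0a1b* the a copy had 78.0%, 90.7%, and 88.1% of the pair in radial glia, 9.69%, 12.1%, and 12.6% in neurons, and 34.4%, 28.6%, and 44.4% in OPCs. For *atp6v1e1a* and *atp6v1e1b* it had 30.2% ± 3.04 in radial glia, 6.58% ± 2.97 in OPCs, and 1.70% ± 0.209 in neurons. For *atp6ap1a* and *atp6ap1b* the order was the reverse, with 84.9% ± 3.83 in neurons and 34.5% ± 8.62 in radial glia.

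The c subunit pair separated macrophages. *atp6v0ca* had 83.3%, 81.4%, and 90.6% of the pair's UMIs in macrophages, 38.8% ± 1.61 in radial glia, and 20.8% ± 1.69 in neurons. The pairs of *atp6v1a* and *atp6v1c1* kept nearer values, from 62.4% to 85.1% and from 53.6% to 68.5% as means over the 6 groups. *ctsbb* had UMIs in macrophages (28 UMIs, with *ctsba* at 89.9% of the pair) and radial glia (2 UMIs), and 0 in the other 4 groups. In macrophages, the pairs of *atp6v0a1* and *lamp1* held only 12 and 15 UMIs, and their replicates spread from 0% to 100% and from 22.2% to 100%. A share depends also on how the 3′ end of each copy is annotated and on reads that fit both copies, so it is read between cell groups and not as a ratio of the proteins.

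**Figure D5:**
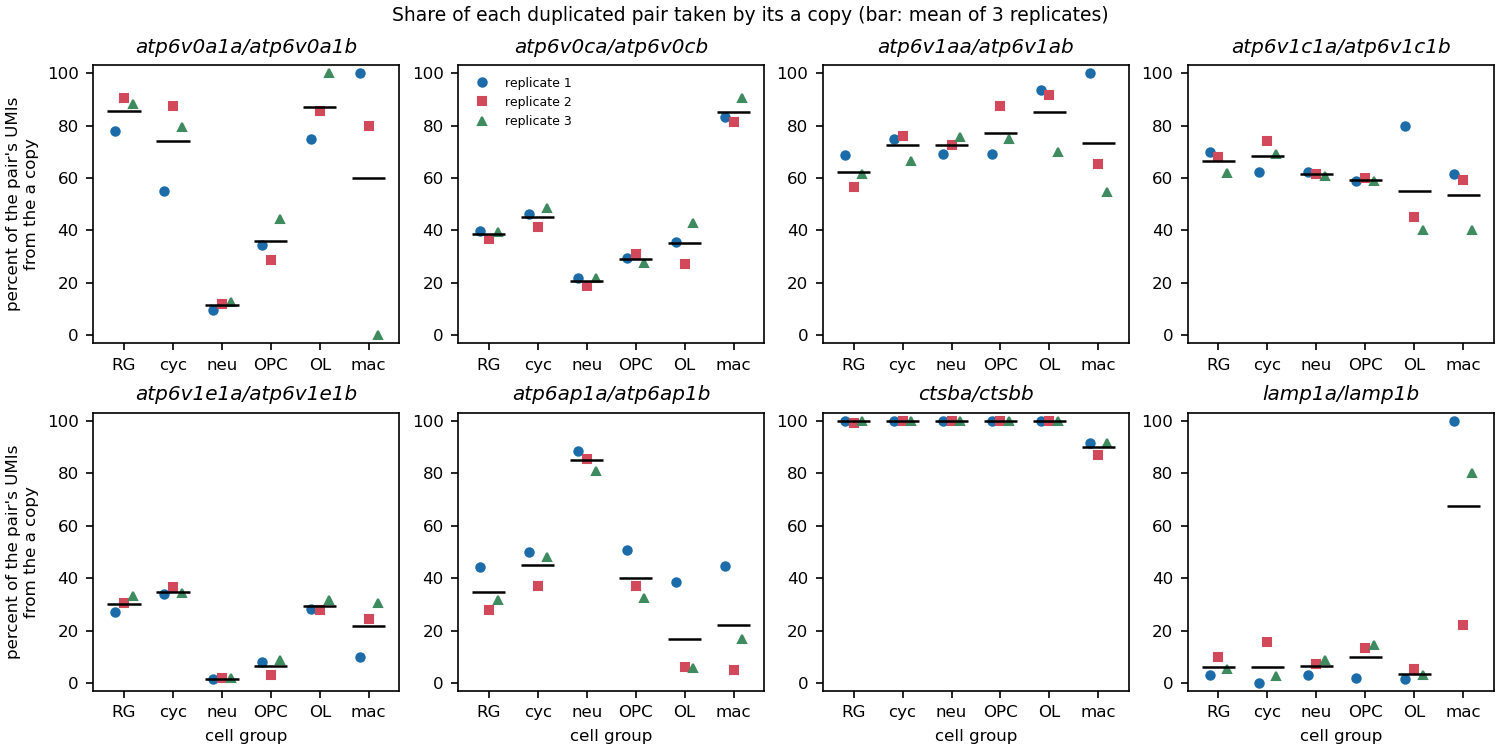
Percent of each duplicated pair's UMIs that came from the a copy (y axes, 0 to 100) in the 6 main cell groups (x axes), with replicates as symbols and the mean as a bar. Neurons are low for *atp6v0a1a* (11.45%) and *atp6v1e1a* (1.70%) and high for *atp6ap1a* (84.9%), and macrophages are high for *atp6v0ca* (85.1%), while their *atp6v0a1* and *lamp1* points rest on 12 and 15 UMIs.

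*atp6v0e1* stood out for its order over the groups. It was at a mean of 0.747 UMIs per 10000 in OPCs, 1.19 in neurons, 1.85 in oligodendrocytes, 2.17 in radial glia, 3.29 in cycling cells, and 7.47 in macrophages. It was lower in neurons and OPCs, where 20 and 16 other pump genes were higher, and higher in cycling cells, where the 11 other called pump genes were lower. Only oligodendrocytes did not differ from radial glia by the test (log2 fold change -0.04 ± 0.16). Replicate 3 had the highest value in all 6 groups.

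The 8 members never tested were *atp6v1c2* and 1 of the *ctslb* rows, both at 0 UMIs in all kept cells, and *LAMP5*, *ctsl.1*, the other *ctslb* row, *ctsll*, *ctss1*, and *cts12*, with 2 to 38 UMIs. At this depth their expression was not detectable or could not be compared.

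Other genes of the lysosomal pathway, taken from 5 lists made from general knowledge (152 symbols, 123 found in the files), are given for comparison. In *ascl1a*+ against *ascl1a*- radial glia 19 of 70 tested were lower and 2 higher (9.45% and 7.37% of all genes), and in *pnp6*+ against *pnp6*- radial glia 16 of 70 were higher and 1 lower (10.2% and 9.06%). *hexb*, a hexosaminidase subunit, was lower with *ascl1a* (0.736 ± 0.0290 against 1.61 ± 0.223 UMIs per 10000; log2 fold change -1.14 ± 0.14, edgeR adjusted p = 7.47e-11) and higher with *pnp6* (1.87 ± 0.120 against 0.934 ± 0.0712; 0.99 ± 0.16). *psap*, which encodes the precursor of the saposins, was at 17.9 ± 1.93 with *pnp6* and 8.75 ± 0.655 without (1.02 ± 0.08, edgeR adjusted p = 2.88e-32). *scarb2a*, for a lysosomal membrane receptor of the LIMP family, ran against both, higher with *ascl1a* (0.84 ± 0.17) and lower with *pnp6* (-0.76 ± 0.23).

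In cycling cells 43 of 83 listed genes were lower and 2 higher (23.8% and 26.5% of all genes). *psap* was at 2.31 ± 0.515 UMIs per 10000 against 10.3 ± 1.01 in radial glia (log2 fold change -2.16 ± 0.10), and *laptm4b*, a late endosomal membrane protein, was lower by a similar log2 fold change (-2.07 ± 0.10). *tcirg1a*, which encodes a further a subunit of V0, was one of the 2 higher genes (1.001 ± 0.35, edgeR adjusted p = 0.0195), beside *scpep1*, a serine carboxypeptidase-like gene (1.43 ± 0.21).

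In neurons 49 of 85 were lower and 11 higher (32.5% and 32.6% of all genes), and the lists differed. Of the other hydrolases 22 of 32 were lower and 0 higher, while 5 of 13 genes for assembly and regulation of the pump were higher, among them *dmxl2* (2.23 ± 0.21) and *rogdi* (1.86 ± 0.14), whose products take part in assembling V1 onto V0. *cd63*, a tetraspanin of late endosomes, was at 1.84 ± 0.403 UMIs per 10000 in neurons and 29.2 ± 1.17 in radial glia (-4.16 ± 0.13, edgeR adjusted p = 7.40e-18), and *npc2*, a lysosomal sterol carrier, at 0.579 ± 0.134 and 5.22 ± 1.07.

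In OPCs 15 of 78 listed genes were higher and 17 lower, shares at or below the 22.8% and 23.9% of all genes. In oligodendrocytes 21 of 70 were higher and 11 lower (18.9% and 24.5% of all genes), and in macrophages 31 of 78 were higher and 10 lower (15.3% and 19.3%). *abca2*, a lysosomal lipid transporter of myelinating cells, was higher in OPCs (3.22 ± 0.20) and oligodendrocytes (3.86 ± 0.20). The macrophages were high in *laptm5* (9.54 ± 2.36 UMIs per 10000), *grna*, a granulin (7.32 ± 1.98), and *ifi30*, a thiol reductase of antigen processing (11.1 ± 4.04), which were at 0.0150 to 0.0674 in radial glia. Being that low there, these genes entered the test through the macrophages, and their calls among the 31 were partly set by the filter. The 31 may hold further such genes. *sort1a*, for the sorting receptor sortilin, was lower than in radial glia in neurons (-3.39 ± 0.15), OPCs (-6.68 ± 0.53), oligodendrocytes (-3.81 ± 0.44), and macrophages (-4.87 ± 0.78), comparisons that share their reference. It was at 0.977 ± 0.142 UMIs per 10000 in radial glia, 0.00996 ± 0.0172 in OPCs, and 0.0155 ± 0.0268 in macrophages. The OPC and macrophage levels are near the floor, so the size of those log2 fold changes depends on the model.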

How the data were processed

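UMI counts per gene and cell barcode were deposited as made by the authors with Cell Ranger 3.0.1, which counts uniquely mapped reads, so near-identical copies (*ctss2.1* and *ctss2.2*, the *ctslb* IDs) are uncertain. Barcodes under 200 genes, above 10% mitochondrial UMIs, or more than 3 SD off a loess curve (span 0.5) of genes on UMIs were left out. Scrublet marked at most 0.0256% as doublets and had not worked, so the top 0.8% of scores per 1000 cells (975 cells) were left out. Cells were thinned to 1000 UMIs (4038 shallower cells left out) and grouped by distinct markers: at least 5 of 12 (radial glia), 4 of 24 (cycling), 5 of 18 (neurons), 3 of 9 (OPCs), 5 of 11 (oligodendrocytes), and 3 of 18 (macrophages). These numbers were chosen after marker distributions were seen. Members and lists were chosen with earlier results of these data known.

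Summed counts were tested with edgeR 4.0.16 (R 4.3.3; TMM, filterByExpr, quasi-likelihood, replicate block), after the script was tested on simulated data. There, simulated 2-fold increases were recovered for 90% of genes in neurons, 42% in oligodendrocytes, and 20% in macrophages. For 2-fold decreases the shares were 64%, 18%, and 14%. In the *ascl1a* split 78% of 2-fold increases and 54% of 2-fold decreases were recovered, and in the *pnp6* split 68% and 22%. A member that did not pass in the small groups or in these splits may therefore still differ, above all if lower. The block pairs groups whose cells share a library and fish, and their deviations correlated at 0.0547 to 0.565. Levels are UMIs per 10000. Alternatives included DESeq2 1.42.0, RLE factors, other thinning, and leaving out each replicate. Members named with values were the 4 with the most UMIs per subgroup (3 for LAMP and accessory genes), up to 6 called per direction and comparison with at least 10 UMIs in each replicate of the higher group, and duplicated pairs. Others were named after their values were seen. Python 3.11.15 and scanpy 1.11.5 were used.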

Additional observations from a re-analysis of the deposited data

How the results depend on the processing

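Of the member counts recomputed under other settings, 118 stayed within 1.5 times and 48 did not. Of the values of single members, 1778 kept their status, called or not called, 250 lost a call, 15 gained one, and 7 reversed. The 1778 thus include members without a call in the main fit, and settings in which a member was not tested are left out. Percentages in brackets are the share of all genes called in the same direction in the same setting. With *ascl1a*, the 1 higher member (7.37%) became 0 under DESeq2 (2.59%), thinning to 500 UMIs (6.13%), and no filter on low counts (2.45%). It also became 0 without the replicate block (0.217%) and with sums of thinned UMIs (6.28%, 24 tested). Without a replicate it was 0 to 1 (3.59% to 4.77%). The 11 lower members (9.45%) became 4 under DESeq2 (3.35%), 6 without the filter (3.03%), 1 without the block (1.45%), and 5 with thinned sums (7.84%, 24 tested). Without a replicate they were 6 to 6 (5.61% to 6.86%). With *pnp6*, the 8 higher (10.2%) became 3 under DESeq2 (5.11%), 500 UMIs (5.48%), and thinned sums (8.71%, 21 tested). They became 2 without the filter (2.15%). They became 0 without the block (2.97%), without *ascl1a*+ cells (6.60%, 21 tested), and with at least 2 UMIs (3.10%). Without a replicate they were 4 to 8 (6.78% to 7.78%). The 1 lower (9.06%) became 0 under DESeq2 (3.15%), 500 UMIs (4.75%), no block (2.23%), no *ascl1a*+ cells (7.78%), and 1 more marker (6.65%). It was also 0 with thinned sums (6.81%), with at least 2 UMIs (4.82%), and without any replicate (4.43% to 6.23%). In cycling cells the higher member (26.5%) became 0 without the block (18.4%), and the 18 lower (23.8%) became 11 among cells with glial markers (12.9%). In OPCs the 3 lower (23.9%) became 6 at 500 UMIs (24.8%), without the filter (14.4%), and with 1 more marker (24.4%). Without a replicate they were 2 to 5 (20% to 20.7%). In oligodendrocytes the 10 higher (18.9%) became 4 under DESeq2 (12.7%), 5 with thinned sums (17.8%, 24 tested), and 6 to 10 without a replicate (13.4% to 17.4%). The 3 lower (24.5%) became 1 to 3 without a replicate (17.2% to 21.7%). In macrophages the 5 lower (19.3%) became 3 under DESeq2 (11.7%) and with 1 more marker (19.6%). They became 8 against all other cells (14.6%, 42 tested). They were 3 to 4 without a replicate (at most 14.4%). The cause was not tested.

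Against all other grouped cells, macrophage log2 fold changes reversed for *atp6ap1a* (-1.42), *atp6v0b* (-0.13), *atp6v1aa* (-0.14), *atp6v1b2* (-1.51), *atp6v1c1a* (-0.23), *atp6v1h* (-0.19), and *ctsd* (0.89). The percent of UMIs moved by more than 1 SD in radial glia (0.362 with all UMIs, 0.371 at 500, 0.362 with 1 more marker, 0.345 at 5% mitochondrial UMIs), *ascl1a*- cells (0.383 at 5%), *pnp6*+ cells (0.438 with all UMIs, 0.451 at 500, 0.424 with doublets, 0.442 at 5%), *pnp6*- cells (0.362 at 500, 0.330 at 5%), neurons (0.629 with 1 more marker, 0.577 at 5%), and OPCs (0.602 with all UMIs). No other count of calls moved by over 1.5 times without the block. Precision is lowest for the groups with few cells, 202 macrophages and 214 oligodendrocytes against 5812 neurons, where several members had under 10 UMIs.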
